A study of Sus scrofa with 20 samples.

Results

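The genes described here are the pig's secreted WNT, bone morphogenetic protein (BMP) and transforming growth factor beta (TGF-beta) signals, with their receptors, inhibitors, carriers and SMAD proteins, as expressed in subcutaneous backfat. Members were the loci of the gene-level count table whose Ensembl identifier maps to a single pig symbol beginning with WNT, FZD, SFRP, DKK, AXIN, TCF7, BMP, GDF, INHB, ACVR, SMAD, TGFB or LTBP. The rule found 70 loci of 58 symbols among 23483 loci, of which 9139 carried a single symbol. Of the 58 symbols, 11 had more than 1 locus, which together made up 23 loci, and these are named with their locus number because neighbouring or overlapping loci of 1 gene can share reads. The names table holds 96 symbols of these families, and no locus was found by symbol here for 38 of them, among them INHBA, INHBB, BMP2, DKK1, SFRP4 and LTBP4, which were not analysed here.

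The backfat came from 20 pigs of the Italian Large White breed, 10 of them female and 10 castrated male. Each library is 1 animal, so p-values measure the spread between animals. The animals shared housing and diet, had a live weight of 150 to 160 kg and ranged in age at slaughter from 233 to 250 days, with a median of 245.5 days among females and 241 days among castrated males. There was no group of intact males, so sex and castration cannot be told apart. Polyadenylated RNA was sequenced as paired reads.

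WNT proteins bind Frizzled (FZD) receptors and, in the canonical branch, stabilise beta-catenin, which acts with TCF7 family factors, while AXIN proteins help to destroy it and secreted SFRP and DKK proteins interfere at the cell surface. TGF-beta, activin, BMP and GDF ligands instead assemble paired serine/threonine kinase receptors that phosphorylate SMAD proteins, and TGF-beta is secreted in a latent form held in the matrix by LTBP proteins. In fat tissue canonical WNT signals and TGF-beta are known as brakes on adipocyte differentiation, whereas several BMPs favour commitment to the adipocyte lineage.

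Total counts per library ran from 25754778 to 51248122. At 11 loci the other 9 females lay apart from the other 9 castrated males by more than 2 on the log2 scale. None of these is a member, and at 11 of 11 the library labelled female 10 lay nearer the castrated males and the library labelled castrated male 10 nearer the females. The labels were kept as given, and calls that were lost without these libraries are given both ways. Castrated male 1 had the highest macrophage marker score of the 20 libraries and the second-lowest adipocyte score. Adipocyte, endothelial, fibroblast and smooth muscle markers were all present: 8 of the 15 adipocyte markers listed had a locus, and their summed level was 3036 to 5636 CPM (counts scaled to library size) in females and 2633 to 6722 CPM in castrated males. Neither of the skeletal muscle markers with a locus, ACTA1 and TNNC2, passed the filter on low counts.

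Levels between genes are compared in FPKM, fragments scaled by transcript length and library size, as deposited. Of the 70 loci 55 had a mean of at least 1 FPKM, 29 of at least 10 and 6 of at least 50. The median over the 66 member loci that passed the filter on low counts was 8.54 FPKM, beside 2.45 FPKM over all 21587 loci that passed. The 4 that did not pass were FZD9, SMAD6 XLOC_001537, WNT2 XLOC_016364 and SFRP5 XLOC_010954.

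The most abundant members were a secreted antagonist and a receptor of the WNT branch. SFRP5 XLOC_011592, a secreted Frizzled-related WNT inhibitor made by adipocytes, averaged 177.5 ± 35.4 FPKM (SD, n = 20). FZD4, a Frizzled receptor, averaged 160.6 ± 30.5 FPKM. These levels lay within 1 SD of each other. The other secreted Frizzled-related inhibitors SFRP2 and SFRP1 averaged 74.3 ± 39.9 and 63.6 ± 22.9 FPKM, and DKK3, a divergent member of the Dickkopf family, 8.56 ± 4.83 FPKM.

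The WNT ligand loci found here stood low on the scale, as did single loci of other roles such as FZD9 and BMP7. Other ligands of the family, among them WNT5A, WNT5B, WNT10A and WNT11, had no locus by symbol and were not analysed. The highest of the WNT loci found was WNT9A, at 2.97 ± 0.773 FPKM. It was followed by WNT10B, a canonical ligand known as an inhibitor of adipogenesis, at 1.25 ± 0.771 FPKM and WNT2 XLOC_016628 at 1.06 ± 1.24 FPKM. WNT10B and WNT2 did not differ beyond their spread. WNT2B, WNT8B, WNT3 and WNT16 loci all had means under 1 FPKM. Among receptors FZD6 followed FZD4 at 9.32 ± 2.40 FPKM and FZD7 at 2.75 ± 0.784 FPKM, while FZD5, FZD10, FZD3 and FZD9 were each under 1 FPKM. Inside the cell, the scaffold AXIN1 averaged 18.8 ± 2.76 FPKM and the transcription factor locus TCF7L2 XLOC_011014 averaged 17.1 ± 2.06 FPKM, values that overlapped, with AXIN2, itself a target of the pathway, at 7.90 ± 1.59 FPKM.

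In the TGF-beta branch, matrix and receptor genes were the most abundant. TGFBI XLOC_017933, an extracellular matrix protein named for its induction by TGF-beta, averaged 87.0 ± 28.9 FPKM, and TGFBR2, the type II receptor that binds the ligand, averaged 74.8 ± 17.2 FPKM. The co-receptor TGFBR3 (betaglycan) averaged 39.2 ± 6.49 FPKM and the type I receptor TGFBR1 8.69 ± 1.37 FPKM. Of the 3 ligands TGFB1 was highest, at 30.1 ± 7.16 FPKM, and the main TGFB2 locus, XLOC_003541, and TGFB3 followed at 12.4 ± 2.49 and 10.9 ± 5.71 FPKM, within each other's spread. The latent carriers LTBP1 XLOC_021280, LTBP1 XLOC_020600 and LTBP3 averaged 21.0 ± 5.03, 20.5 ± 7.26 and 18.3 ± 4.0 FPKM and could not be ordered beyond their spread, whereas LTBP2, a microfibril protein that does not bind latent TGF-beta, averaged 3.32 ± 2.52 FPKM.

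BMP6 was the most abundant BMP ligand of the growth factor type, at 31.0 ± 2.69 FPKM. BMP4, a factor of adipocyte commitment, averaged 12.4 ± 3.13 FPKM, BMP5 6.59 ± 3.62 FPKM and BMP7 0.228 ± 0.324 FPKM. BMP1, a metalloproteinase that processes procollagen and chordin and no growth factor despite its name, averaged 47.1 ± 7.78 FPKM. BMPER XLOC_016659, a secreted BMP-binding protein, averaged 26.2 ± 7.20 FPKM. The type II receptor BMPR2 averaged 11.1 ± 1.21 FPKM and the larger BMPR1A locus, XLOC_010866, 7.48 ± 1.01 FPKM. GDF11, GDF9 and GDF10 averaged 8.52 ± 3.0, 5.49 ± 1.03 and 4.61 ± 2.82 FPKM. ACVRL1 (ALK1), a type I receptor best known from endothelium, averaged 17.4 ± 6.0 FPKM, close to ACVR1 XLOC_013257 at 16.1 ± 2.47 FPKM, and ACVR1C (ALK7), a receptor of adipocytes, averaged 2.97 ± 1.26 FPKM. SMAD4, the partner shared by both branches, led the SMADs at 23.6 ± 2.22 FPKM. The BMP-regulated SMAD1 and SMAD5 averaged 13.2 ± 2.44 and 9.37 ± 1.63 FPKM, the TGF-beta-regulated SMAD3 and SMAD2 11.6 ± 2.54 and 11.6 ± 2.40 FPKM, and the inhibitory SMAD7 and SMAD6 XLOC_000521 9.53 ± 2.85 and 6.83 ± 3.83 FPKM.

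By sex, the ranges of these leading members overlapped. WNT9A had 7.28, 12.5 and 20.3 CPM in females and 8.33, 12.5 and 15.5 CPM in castrated males (lowest, median, highest). FZD6 had 22.7, 32.4 and 48.0 CPM in females and 25.8, 41.6 and 60.7 CPM in castrated males. Its highest CPM was in the library labelled castrated male 10, which had 10.4 FPKM. In FPKM castrated male 9 was highest, at 14.4. AXIN1, whose highest library was less than 2 times its lowest, had 61.5, 90.4 and 105.7 CPM in females and 64.7, 89.2 and 115.6 CPM in castrated males. TCF7L2 XLOC_011014 was narrower still, at 40.02, 54.2 and 63.9 CPM in females and 43.0, 51.4 and 62.3 CPM in castrated males.

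In the TGF-beta and BMP branches TGFBI XLOC_017933 had a 5.50-fold range between its lowest and highest library, with 30.9, 103.0 and 169.7 CPM in females and 55.4, 89.2 and 138.1 CPM in castrated males, female 7 being lowest and female 2 highest. ACVR1 XLOC_013257 had 29.2, 36.7 and 45.7 CPM in females and 31.3, 36.4 and 46.8 CPM in castrated males. BMP6 had 106.3, 129.1 and 152.8 CPM in females and 109.1, 138.3 and 149.0 CPM in castrated males, the narrowest range of the BMP ligands. BMP4 had 11.6, 18.3 and 30.5 CPM in females and 13.1, 18.5 and 24.7 CPM in castrated males, with female 2 highest. GDF11, a ligand close to myostatin, had 23.9, 34.4 and 72.5 CPM in females and 20.5, 29.1 and 52.5 CPM in castrated males, with female 6 highest. GDF9, best known from the oocyte, had 13.3, 14.0 and 23.7 CPM in females and 10.5, 16.5 and 18.2 CPM in castrated males. Its castrated male median lay above the female one. SMAD4 had 99.3, 118.6 and 129.1 CPM in females and 103.7, 119.5 and 135.4 CPM in castrated males. Its highest CPM was in the library labelled castrated male 10, where its FPKM, 18.1, was the lowest of the 20 libraries. SMAD1 had 23.9, 34.3 and 38.4 CPM in females and 24.9, 34.2 and 41.6 CPM in castrated males. Both SMADs overlapped between the sexes over most of their ranges.

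**Figure D1:**
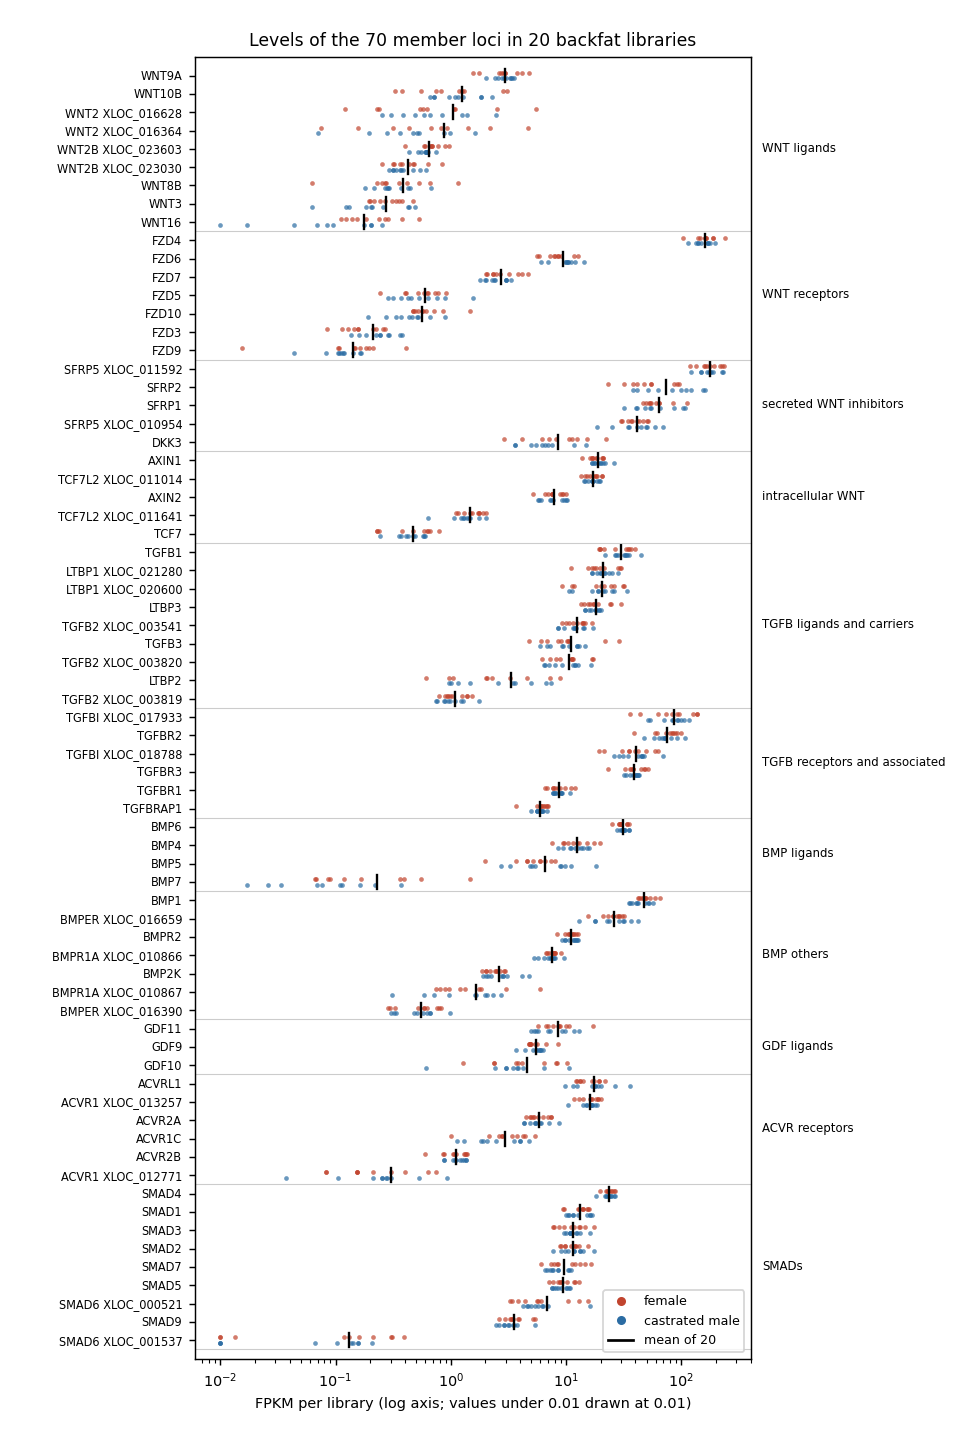
Each point is the FPKM of 1 library (log axis) at 1 of the 70 member loci, grouped by role and ordered by mean within a role; black marks are means of 20. SFRP5 XLOC_011592 (177.5 FPKM) and FZD4 (160.6 FPKM) lie farthest right, and the WNT ligand loci lie at 2.97 FPKM or below.

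How far a gene varied between animals was measured as the SD of log2 CPM with the mean of each sex removed. Over the 61 member loci with a mean of at least 1 CPM the median SD was 0.390, beside 0.351 over the 15770 such loci in the table. The steadiest members were SMAD4, with an SD of 0.114 and 99.3 to 135.4 CPM over the 20 libraries, and BMP6, with an SD of 0.156 and 106.3 to 152.8 CPM.

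The 6 members of largest spread were 4 ligand loci, 1 matrix protein and 1 receptor locus. WNT2 XLOC_016628 had the largest SD, 1.37, and ran from 0.632 CPM in female 7 to 28.5 CPM in female 3, a 45.0-fold range. By sex it had 0.632, 3.14 and 28.5 CPM in females and 1.16, 3.08 and 12.6 CPM in castrated males. LTBP2 had an SD of 1.22 and ran from 3.45 CPM in female 7 to 53.2 CPM in female 2. Both genes had their extremes among the females. GDF10, a BMP3-like factor, had an SD of 0.958, with 3.52, 10.7 and 27.4 CPM in females and 1.69, 9.7 and 20.2 CPM in castrated males, the lowest in castrated male 1 and the highest in female 8. WNT10B had an SD of 0.894, from 0.594 CPM in the library labelled female 10 to 7.10 CPM in female 3. WNT8B and BMPR1A XLOC_010867, both near 1 CPM and so with a share of counting error, had SDs of 0.837 and 0.816. WNT8B had 0.215, 0.807 and 3.42 CPM in females and 0.375, 0.801 and 1.76 CPM in castrated males. BMPR1A XLOC_010867 had 0.764, 1.13 and 4.68 CPM in females and 0.285, 1.23 and 2.16 CPM in castrated males. Female 7 was the highest library for both.

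Where a symbol had several loci, these did not always move as 1 gene. Across the 20 libraries, as a description, log2 CPM of the TGFBI loci correlated at r = 0.92, TGFB2 XLOC_003541 and XLOC_003820 at r = 0.85 and the LTBP1 loci at r = 0.84. TCF7L2 and BMPR1A loci correlated at r = -0.10 and 0.14. BMPR1A XLOC_010866 itself ran from 34.2 CPM to 148.3 CPM in the counts but only from 5.25 to 9.67 in FPKM, so its count and its FPKM did not run in parallel. Other loci departed likewise in the library labelled castrated male 10. BMPR2 was highest there in CPM (187.4) but had 9.20 FPKM, in a range of 8.41 to 12.6 FPKM. TGFBR1 was highest there in CPM (79.8) but had 7.78 FPKM, in a range of 6.59 to 11.9 FPKM.

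Isoform values could be tied to 65 of the 70 loci, with 252 isoforms, of which 68 had a nearest reference transcript. SFRP5 XLOC_011592 was carried almost wholly by its reference isoform, which held a mean of 94.6% of the locus FPKM (83.9% to 97.8% over libraries). BMP4 and SMAD5 were likewise led by a reference isoform, at 90.6% and 98.7%. For TGFBR1, LTBP3 and BMP6 the leading isoform had no reference transcript and held means of 84.3%, 84.8% and 79.6%. FZD4 was split, with its leading isoform at a mean of 45.2% and a range of 22.7% to 62.0%, and TGFB3 more so, with a leading isoform at 38.2% that led in 11 of 20 libraries.

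Between females and castrated males no member passed the test. The test was edgeR's quasi-likelihood test with Benjamini-Hochberg adjustment over all 21587 loci. By it 0 of 66 member loci passed an adjusted p of 0.05, where 0% of all loci passed. That fit kept both libraries numbered 10, without which 18 of 21583 loci passed. In all 20 libraries limma-voom and DESeq2 also called 0 members, beside 9 and 6 of 21587 loci. At an unadjusted p under 0.05 there were 5 member loci, beside 4.33% of all loci. The 66 differences had a median of 0.05 on the log2 scale (0.00 over all loci), and 39 lay above 0, that is toward females, where 50.9% of all loci did.

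Of 8 tested WNT ligand loci, 2 of them of WNT2B, 7 had a difference above 0, where 50.9% of all loci did. Their median was 0.21, and 1 of the 8 had an unadjusted p under 0.05 by edgeR. WNT16, a non-canonical ligand, had 0.353, 0.676 and 1.83 CPM in females (lowest, median, highest) and 0.0377, 0.286 and 0.802 CPM in castrated males. The groups overlapped, and the log2 difference was 1.11 ± 0.40 (SE; unadjusted p = 0.011, adjusted p = 1.0 by edgeR). BMP7, known for its part in brown fat, had 0.223, 0.541 and 5.37 CPM in females and 0.0896, 0.369 and 1.55 CPM in castrated males. Its difference was 1.505 ± 0.587 (adjusted p = 1.0 by edgeR), with female 4 far above the others, and 0.86 without female 4. BMP1 had 176.7, 208.5 and 289.3 CPM in females and 149.4, 182.8 and 237.9 CPM in castrated males, overlapping ranges with a difference of 0.22 ± 0.10.

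SFRP2 had a difference below 0. It measured 36.6, 87.4 and 181.7 CPM in females and 62.0, 167.3 and 278.4 CPM in castrated males. The ranges overlapped, and the log2 difference was -0.69 ± 0.31 (unadjusted p = 0.038, adjusted p = 1.0 by edgeR). The receptor gene FZD3 had 0.355, 0.453 and 0.749 CPM in females and 0.448, 0.715 and 1.12 CPM in castrated males, ranges that overlapped, with a difference of -0.52 ± 0.20. Leaving out both libraries numbered 10 left 0 member loci called, beside 18 of 21583 loci. The differences were then 1.66 for BMP7, 1.05 for WNT16, -0.69 for SFRP2 and -0.53 for FZD3.

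Age at slaughter, entered as a slope per 10 days beside sex, also gave 0 of 66 members past an adjusted p of 0.05 in edgeR, limma-voom or DESeq2 (0% of all loci in edgeR). At an unadjusted p under 0.05 there were 10 of 66 members, beside 1189 of 21587 loci (5.51%). Those with a slope below 0 were 9 of the 66 members and 805 of the 21587 loci (3.73%). Without female 2 the member count was 7, beside 737 of 21798 loci, and without castrated male 9 it was 15, beside 1714 of 21745 loci. Of the 66 slopes only 19 lay above 0, where 50.2% of all loci did, and their median was -0.15 (0.00 over all loci). Of these 10, 5 were among the 9 TGF-beta ligand and carrier loci, each with a slope below 0. Of those 9 loci 6 had slopes below 0 and 3 above, with a median of -0.43.

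TGFB3, the member with the smallest p, had 16.1, 27.8 and 88.0 CPM in females and 16.8, 27.3 and 44.3 CPM in castrated males. The highest value, 88.0 CPM, belonged to female 2, the youngest female at 235 days, and the females slaughtered at 250 days, female 6 and the library labelled female 10, had 17.9 and 16.1 CPM. Among castrated males the youngest, castrated male 2 at 233 days, was highest at 44.3 CPM. The slope was -0.91 ± 0.20 on the log2 scale per 10 days (unadjusted p = 0.00016, adjusted p = 0.575 by edgeR), and adjusted p was 0.092 with DESeq2. It was -0.68 without female 2 and -0.84 without both libraries numbered 10. Female 2 also had the highest smooth muscle marker score of the 20 libraries, 1.70. The Schwann cell score, from 2 markers, was highest there too, at 2.44.

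The 4 loci of the LTBP genes also had slopes below 0. LTBP1 XLOC_021280 had 73.3, 98.3 and 162.6 CPM in females and 84.8, 115.9 and 153.5 CPM in castrated males, with a slope of -0.44 ± 0.13 (adjusted p = 0.848 by edgeR) and of -0.39 without both libraries numbered 10. LTBP3 had 38.4, 62.2 and 114.4 CPM in females and 34.3, 60.4 and 70.9 CPM in castrated males, with a slope of -0.43 ± 0.16. As with TGFB3, female 2 was the highest library for LTBP3, and without it the slope was -0.28 (unadjusted p = 0.119 by edgeR). Without both libraries numbered 10 the LTBP3 slope was -0.35. LTBP2, which is not a latent carrier, had 3.45, 12.3 and 53.2 CPM in females and 4.63, 15.9 and 44.8 CPM in castrated males, with a slope of -1.21 ± 0.46, and of -0.96 without female 2 (unadjusted p = 0.093 by edgeR). LTBP1 XLOC_020600, whose reads may overlap with those of the other LTBP1 locus, had 9.11, 23.1 and 38.5 CPM in females and 11.1, 25.7 and 40.6 CPM in castrated males, with a slope of -0.64 ± 0.22. TGFB1 itself had 41.4, 66.1 and 90.6 CPM in females and 46.3, 67.5 and 104.6 CPM in castrated males, with a slope of -0.19. The 3 TGFB2 loci went the other way or lay near 0, with slopes of 0.02 ± 0.14 at XLOC_003541, 0.19 ± 0.19 at XLOC_003819 and 0.21 ± 0.28 at XLOC_003820.

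**Figure D2:**
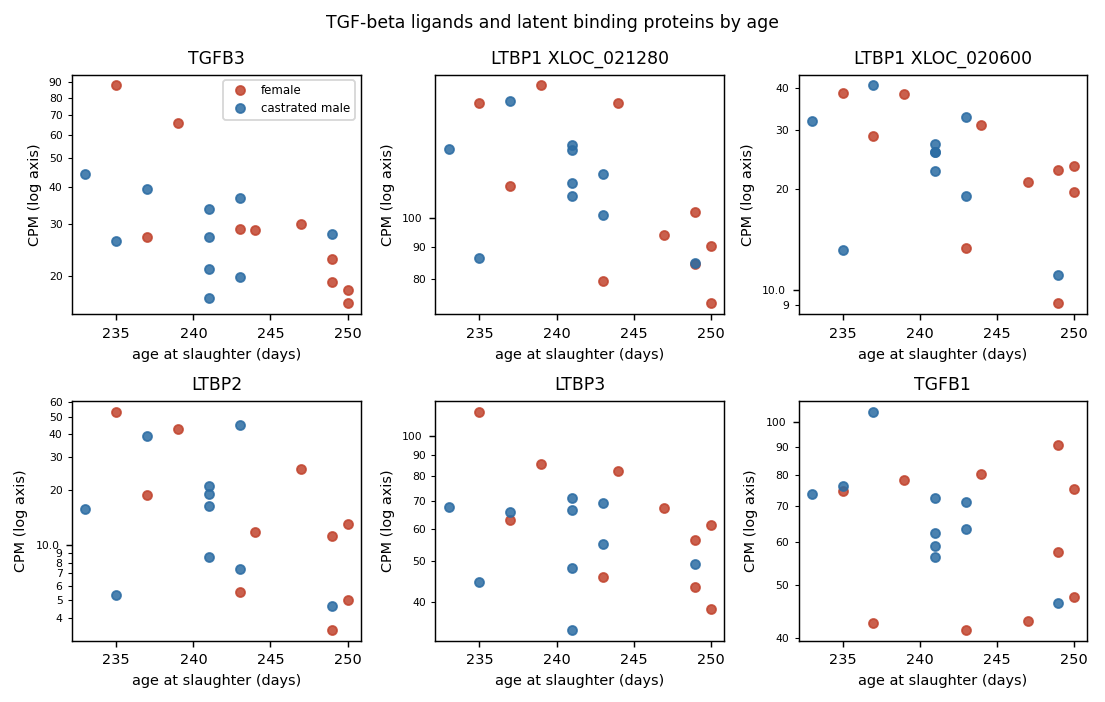
CPM (log axis) of TGF-beta ligand and LTBP loci against age at slaughter in days, 1 point per library, females in red and castrated males in blue. TGFB3 is highest in female 2 (88.0 CPM at 235 days) and lowest in the library labelled female 10 (16.1 CPM at 250 days).

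Outside that group, WNT2 XLOC_016628 had a slope of -1.47 ± 0.59, TGFBI XLOC_017933 of -0.49 ± 0.23 and ACVR1 XLOC_013257 of -0.20 ± 0.08. The ligand locus WNT2B XLOC_023603 had 5.65, 8.07 and 10.7 CPM in females and 5.14, 6.95 and 9.2 CPM in castrated males and a slope of -0.32 ± 0.11. The activin type II receptor gene ACVR2A was the only one of the 10 with a slope above 0. It had 11.4, 13.6 and 17.1 CPM in females and 10.97, 13.9 and 18.4 CPM in castrated males and a slope of 0.23 ± 0.10. At both loci the sexes overlapped. All adjusted p-values by edgeR were 0.848 or more, except that of TGFB3.

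The age slopes were also fitted beside marker scores of cell types, described further on. With the macrophage marker score in the model, chosen as an addition after the data had been seen, 4 members had an unadjusted p under 0.05 and TGFB3 kept a slope of -0.81, while LTBP2 stood at -0.61 (unadjusted p = 0.145). With the smooth muscle score added there were 6 such members and the TGFB3 slope was -0.67, and with the adipocyte score 7, with TGFB3 at -0.80. Over all 21587 loci, 1189 had an unadjusted p under 0.05 by edgeR without a score. With the macrophage, smooth muscle and adipocyte score added there were 669, 1037 and 1451. What part tissue makeup has in the slopes was not tested further. In bulk tissue, fewer cells of a type and less RNA per cell cannot be told apart.

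Other genes of these pathways were counted from lists of 42 WNT and 46 BMP and TGF-beta pathway symbols that are not members. Over all loci 50.2% had an age slope above 0 and 5.51% an unadjusted p under 0.05 by edgeR. Those with such a p and a slope below 0 were 3.73% of all loci. Of 28 tested WNT pathway genes 7 had an age slope above 0. An unadjusted p under 0.05 was found for 1 of the 28, the ubiquitin ligase gene ZNRF3, a smaller share than over all loci. Of 25 tested BMP and TGF-beta pathway genes 4 had a slope above 0 and 6 an unadjusted p under 0.05, all below 0. They were the leucine-rich matrix protein genes BGN (-0.51 ± 0.18) and ASPN (-0.38 ± 0.17), the microfibril gene FBN1 (-0.63 ± 0.26), the BMP antagonist gene CHRD (-0.46 ± 0.20), the BMP target ID2 (-0.48 ± 0.19) and the ubiquitin ligase gene SMURF1 (-0.31 ± 0.12), with adjusted p of 0.859 or more by edgeR.

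**Figure D3:**
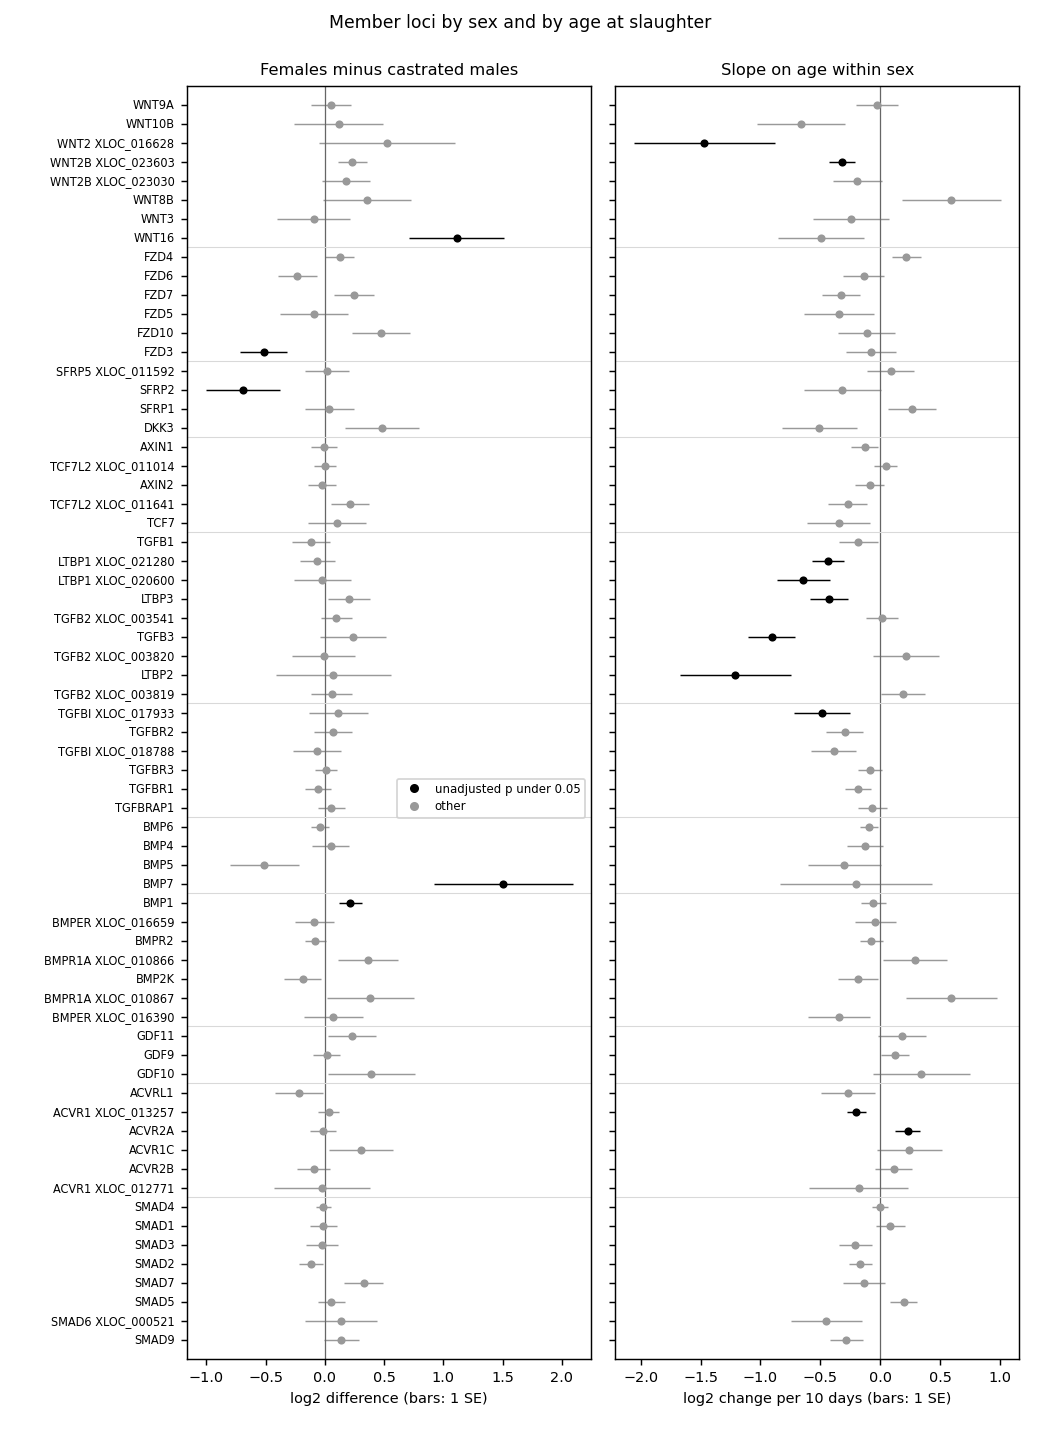
Log2 difference of females minus castrated males (left) and log2 slope per 10 days of age (right) for the 66 tested member loci, with bars of 1 SE and black points where the unadjusted p was under 0.05. The differences scatter around 0 (median 0.05), while 19 of 66 age slopes lie above 0.

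Whether the age slope itself differed between the sexes was tested as an interaction. With edgeR, limma-voom and DESeq2 0 of 66 members passed (0% of all loci in edgeR), and 5 had an unadjusted p under 0.05, beside 5.42% of all loci. WNT10B had 0.594, 2.23 and 7.10 CPM in females and 1.31, 2.41 and 4.28 CPM in castrated males. Its slope by least squares was -1.59 in females and 0.78 in castrated males, and the difference of slopes was -2.37 ± 0.57 (unadjusted p = 0.00046, adjusted p = 0.849 by edgeR, 0.063 by DESeq2). The extremes were females, with 6.19 and 7.10 CPM in female 2 and female 3, aged 235 and 239 days, and 0.594 CPM in the library labelled female 10. Without both libraries numbered 10 the difference was -2.17.

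Slopes within each sex are least squares fits to log2 CPM and differences of slopes come from the edgeR fit, so the latter are not the exact difference of the former. WNT2 XLOC_016628 had slopes of -2.32 and 0.52 and a difference of -3.11 ± 1.03, BMP7 slopes of -1.83 and 1.06 and a difference of -3.57 ± 1.04, and TGFB3 slopes of -1.17 and -0.38 and a difference of -0.90 ± 0.37. ACVR2B, another activin type II receptor gene, had 8.33, 15.7 and 18.7 CPM in females and 11.8, 16.3 and 19.7 CPM in castrated males. Its slopes went the other way, at 0.42 and -0.31, with a difference of 0.70 ± 0.28. All 5 had adjusted p-values of 0.849 or more by edgeR. Without both libraries numbered 10 the differences of slopes were -3.02 for WNT2, -3.33 for BMP7, -0.84 for TGFB3 and 0.75 for ACVR2B. Castrated male 5, at 249 days, was the oldest castrated male. Without it the unadjusted p by edgeR was 0.0997 for BMP7, 0.178 for TGFB3 and 0.110 for ACVR2B. WNT10B and WNT2 XLOC_016628 kept an unadjusted p under 0.05 by edgeR when any 1 library was left out.

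Differences between animals were next read against marker genes of the cell types of fat. For each cell type a score was taken as the mean z value of the log2 CPM of its markers in each library, no member among them, and each locus was fitted against the score in SD units with sex in the model. Scores, markers and members come from the same libraries and share their depth and tissue makeup, and a slope on a score is not an assignment to a cell type.

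On the adipocyte score 3 of 66 members passed, all with slopes above 0 (0.686% of all loci in either direction, 0.616% above 0). FZD4 had 685.1, 1084 and 1686 CPM in females and 797.8, 1030 and 1287 CPM in castrated males. Its lowest libraries, female 3, castrated male 10 as labelled and castrated male 1, were also the 3 lowest in the score, and the slope was 0.22 ± 0.05 per SD (adjusted p = 0.030 by edgeR). SFRP5 XLOC_011592 had 121.0, 198.3 and 259.3 CPM in females and 60.1, 203.4 and 252.2 CPM in castrated males. Its slope was 0.33 ± 0.08 (adjusted p = 0.048 by edgeR), with the library labelled castrated male 10 alone at 60.1 CPM. BMPER XLOC_016659 had 38.2, 65.6 and 78.7 CPM in females and 39.3, 61.1 and 114.0 CPM in castrated males, with a slope of 0.31 ± 0.06 (adjusted p = 0.018 by edgeR).

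These calls were lost in 2 smaller sets of libraries. Without both libraries numbered 10, 0 members passed, with slopes of 0.23 for FZD4 (adjusted p = 0.164), 0.24 for SFRP5 XLOC_011592 (0.182) and 0.30 for BMPER XLOC_016659 (0.163) by edgeR. Without the libraries farthest from the median score, castrated male 10 as labelled and castrated male 1, 0 passed either, at slopes of 0.26, 0.29 and 0.33. Without castrated male 1 alone FZD4 did not pass (adjusted p = 0.053 by edgeR), while SFRP5 and BMPER did. The slopes were thus similar in size and the calls were lost. Calls over all loci fell as well, from 148 of 21587 in all 20 libraries. Without both libraries numbered 10 they were 9 of 21583, and without the farthest 2 libraries 0 of 21931. Without castrated male 1 alone they were 123 of 21757. ACVR1C, the adipocyte receptor ALK7, had a slope of 0.40 ± 0.13 that did not pass (adjusted p = 0.165 by edgeR), with 2.19, 6.40 and 13.6 CPM in females and 2.78, 4.99 and 9.66 CPM in castrated males.

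**Figure D4:**
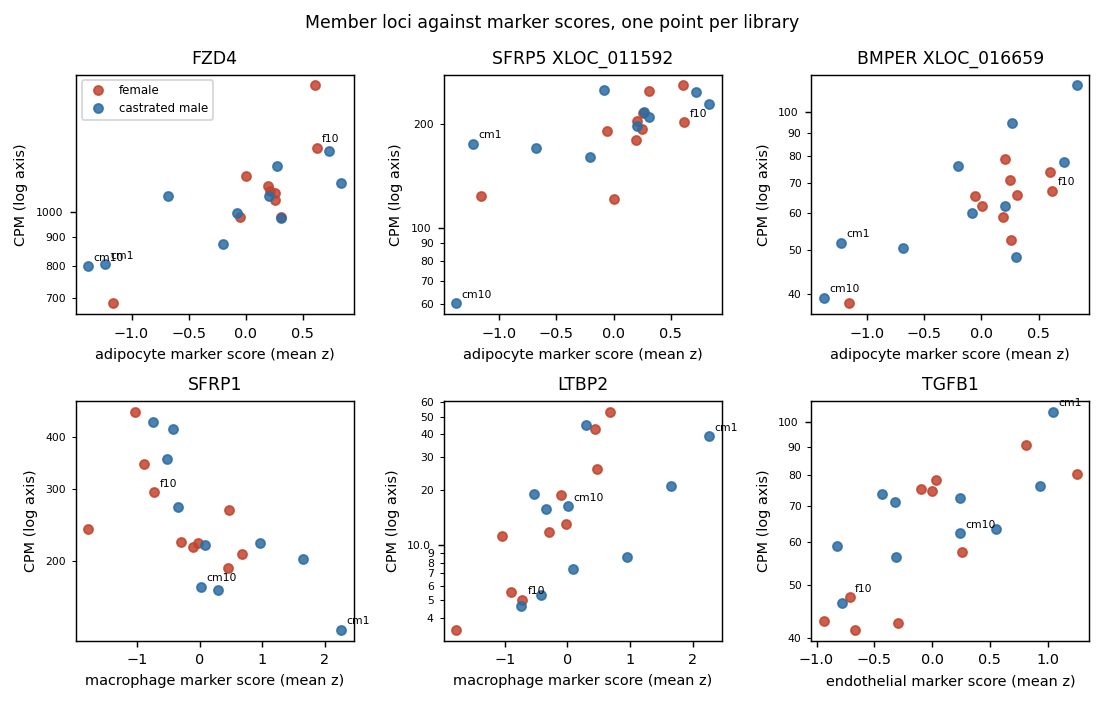
CPM (log axis) of 6 member loci against the marker score named under each panel, 1 point per library, females red and castrated males blue; cm1, cm10 and f10 mark castrated male 1 and the libraries labelled castrated male 10 and female 10. FZD4 is lowest, at 685.1 CPM in female 3, where the adipocyte score is low, and SFRP1 is lowest, at 136.6 CPM, in castrated male 1, where the macrophage score is highest.

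The macrophage score had the most members: 14 of 66 passed, beside 7.71% of all loci, 9 above 0 (4.82% of all loci) and 5 below 0 (2.89%). The summed level of the 6 macrophage markers with a locus, of 11 listed, was 73.5 to 369.7 CPM in females and 152.1 to 991.3 CPM in castrated males, the highest in castrated male 1. In all 20 libraries 1664 of 21587 loci passed. Without castrated male 1, 4 members passed, beside 772 of 21757 loci. Without castrated male 1 and female 7, the libraries farthest from the median score, 2 passed, beside 440 of 21623 loci. With upper-quartile scaling 11 members passed, 6 above 0 and 5 below, and over all loci the calls were 843 above and 851 below 0 where they had been 1040 and 624, so the larger share above 0 depended on the scaling. Without both libraries numbered 10, 10 passed, beside 1719 of 21583 loci, and SFRP2, TGFBI XLOC_017933, FZD5 and SMAD2 did not.

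Among the members above 0 were LTBP and TGF-beta receptor genes. LTBP2 had a slope of 0.92 ± 0.22 per SD (adjusted p = 0.011 by edgeR), which was 1.07 without castrated male 1 (0.027) and 0.98 without castrated male 1 and female 7, where it did not pass (0.123). TGFBR2 had 34.6, 74.6 and 91.6 CPM in females and 43.8, 65.5 and 98.4 CPM in castrated males, with a slope of 0.28 ± 0.07 (adjusted p = 0.016 by edgeR). ACVRL1 had 37.7, 60.2 and 82.7 CPM in females and 37.7, 64.6 and 146.6 CPM in castrated males, its highest value in castrated male 1, and a slope of 0.37 ± 0.08 (adjusted p = 0.003 by edgeR). Neither TGFBR2 (0.097) nor ACVRL1 (0.101) passed without castrated male 1. SFRP2 had a slope of 0.55 ± 0.15 (adjusted p = 0.031 by edgeR), which was 0.72 without castrated male 1 (0.012) and 0.67 without castrated male 1 and female 7, where it did not pass (0.054). BMP2K, a kinase gene named for its induction by BMP2, had 2.82, 4.02 and 4.79 CPM in females and 2.89, 4.29 and 7.12 CPM in castrated males, its highest value again in castrated male 1, and a slope of 0.29 ± 0.06. The remaining members above 0 were LTBP1 XLOC_020600, TGFBI XLOC_017933, SMAD2 and the receptor gene FZD5, at slopes of 0.41, 0.40, 0.15 and 0.40. Apart from LTBP2 and SFRP2, none of these 9 passed without castrated male 1. Of the 6 loci of TGF-beta receptors and associated genes, which include both TGFBI loci, 6 had slopes above 0. Over all loci 10774 of 21587 did. Of the 6, TGFBR2 and TGFBI XLOC_017933 passed in all 20 libraries, and neither passed without castrated male 1.

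Below 0, SFRP1 had 192.8, 231.4 and 460.5 CPM in females and 136.6, 219.8 and 435.5 CPM in castrated males. Its slope was -0.37 ± 0.08 (adjusted p = 0.008 by edgeR), and it was -0.36 without castrated male 1 (0.048) and -0.45 without castrated male 1 and female 7 (0.016). SFRP1 and SFRP2, both secreted Frizzled-related proteins, thus had slopes of opposite sign on this score. SMAD5 had 50.7, 68.5 and 88.7 CPM in females and 53.1, 67.6 and 94.2 CPM in castrated males, with a slope of -0.21 ± 0.04 (adjusted p = 0.004 by edgeR) that also passed in both smaller sets. SMAD1, like SMAD5 a BMP-regulated SMAD, had a slope of -0.17, and TGFB2 XLOC_003541 and XLOC_003820, 2 loci of 1 gene, had slopes of -0.20 and -0.41. TGFB2 XLOC_003541 had 11.8, 16.7 and 21.3 CPM in females and 9.42, 15.3 and 19.6 CPM in castrated males, lowest in castrated male 1, and XLOC_003820 had 0.527, 1.29 and 2.54 CPM in females and 0.688, 1.16 and 2.22 CPM in castrated males. These 2 loci and SMAD1 did not pass without castrated male 1. The TGF-beta-regulated SMAD2 had a slope above 0, at 0.15.

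Of the other pathway genes, 4 of 25 in the BMP and TGF-beta list passed on the macrophage score (16%, beside 7.71% of all loci), all above 0. They were the proprotein convertase gene FURIN (0.30 ± 0.06), the SMAD corepressor gene TGIF1 (0.26 ± 0.05), FBN1 (0.48 ± 0.13) and the pseudoreceptor gene BAMBI (0.35 ± 0.11). In the WNT list 2 of 28 passed (7.14%, near the share of all loci), ROR1 above 0 (0.49 ± 0.12) and LGR4, a receptor for R-spondins, below 0 (-0.32 ± 0.09). Without castrated male 1, FURIN, FBN1 and ROR1 passed and TGIF1, BAMBI and LGR4 did not, and without castrated male 1 and female 7 none of these 6 passed in edgeR.

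TGFB1 was the only member that passed on the endothelial score, 1 of 66 beside 0.996% of all loci. Its slope was 0.28 ± 0.06 (adjusted p = 0.024 by edgeR), and 0.26 without castrated male 1, its highest library at 104.6 CPM, where it did not pass (0.080). Without both libraries numbered 10 it was 0.28 and passed (0.038). Over all loci 85 of 21757 passed without castrated male 1 and 196 of 21583 without both libraries numbered 10. The endothelial-rich receptor gene ACVRL1 had a slope of 0.22 ± 0.09 on this score (adjusted p = 0.251 by edgeR), and SMAD7 of 0.26 ± 0.07 (0.057). No member passed on the fibroblast and matrix score (0 of 66, beside 0.0417% of all loci, with 11 members at an unadjusted p under 0.05 beside 8.71% of all loci) or on the smooth muscle score (0 of 66, beside 0.0371%, with 12 at an unadjusted p under 0.05 beside 4.83%), by edgeR or limma-voom. SFRP2 was nearest on the first, at 0.51 ± 0.14 (adjusted p = 0.288), and TGFB3 on the second, at 0.48 ± 0.10 (0.160).

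**Figure D5:**
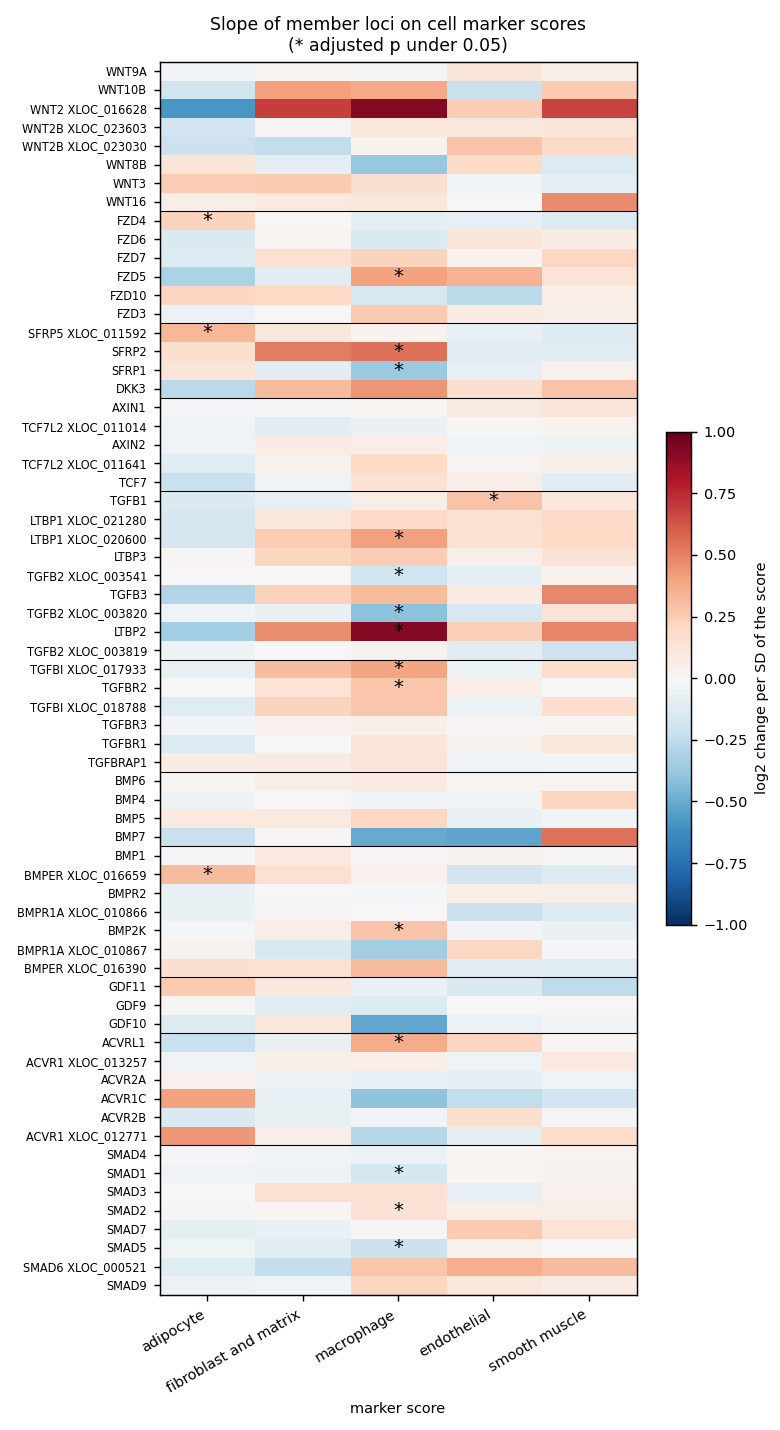
Heat map of log2 slopes per SD of 5 cell marker scores for the 66 tested member loci, ordered by role, red above 0 and blue below; an asterisk marks an adjusted p under 0.05. The macrophage column holds 14 of the 18 asterisks, LTBP2 with the steepest of these slopes (0.92).

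Pairs of genes with a known link in these pathways were compared across the 20 animals. Of 12 pairs fixed, 7 had both genes tested. TGFB3 and LTBP1 XLOC_021280, ligand and carrier, gave Pearson's r = 0.65 (permutation p = 0.0013, adjusted over 7 pairs 0.0077) and Spearman's rho = 0.58 (adjusted permutation p = 0.030), but r = 0.49 without female 2 and female 3, the libraries farthest from the TGFB3 median (adjusted permutation p = 0.128), so that the call rested on those libraries. Both genes had age slopes below 0. SMAD6 XLOC_000521 and SMAD7, the inhibitory SMADs induced by their own pathways, gave r = 0.64 (permutation p = 0.0022, adjusted 0.0077) and rho = 0.63 (adjusted permutation p = 0.026). Without castrated male 1 and female 2 the pair gave r = 0.63 (adjusted permutation p = 0.026) and rho = 0.60 (adjusted permutation p = 0.072), so that r passed there and rho did not. In FPKM this pair gave r = 0.49 (adjusted permutation p = 0.103) and rho = 0.51 (adjusted permutation p = 0.157).

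A further 4 pairs did not pass. WNT10B and AXIN2 gave r = 0.42 and rho = 0.50 (adjusted permutation p = 0.109 and 0.066), TGFB1 and LTBP2 r = 0.23 and rho = 0.17, LEF1 and AXIN2 r = -0.19 and rho = -0.32, and TGFB1 and TGFBI XLOC_017933 r = 0.02 and rho = 0.15. Within sexes, by removing the mean of each sex, r was 0.67 for TGFB3 and LTBP1 and 0.66 for SMAD6 and SMAD7.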

How the data were processed

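Raw counts per locus and FPKM per locus and isoform were deposited by the authors; build Sscrofa10.2, Cufflinks 2.1.1, TopHat2 2.0.8, DESeq2 and Bowtie2 2.1.0.0 are named in the submitters' processing notes. The counting tool, its strand setting and the annotation were not given in the sources used here, so loci of 1 symbol may share reads. All 20 libraries were used as labelled. Counts were fitted over all loci with edgeR 4.0.16 (TMM, filterByExpr, glmQLFit, glmQLFTest; 21587 of 23483 loci kept) and Benjamini-Hochberg adjusted, threshold 0.05. limma 3.58.1 (voom, or log2 of FPKM plus 0.1 or 1), DESeq2 1.42.0 and upper-quartile scaling were alternatives. Log2 CPM used a prior count of 2. Isoforms were tied to a locus where a run of isoforms summed to its FPKM. Pairs used 100000 permutations, two-sided. On simulated counts with a log2 change of 1, edgeR recovered 91% of loci for sex, 87% for age and 11% for the interaction. With a change of 0.58 it recovered 59%, 51% and 0%. For age and the interaction these changes were per 10 days. Each locus was drawn on its own, without a tissue makeup shared between loci, and the sex labels were taken as right. Changes were planted only above a minimum mean CPM. Members that do not reach it include BMP7, WNT16, FZD3, WNT10B, WNT8B and BMP2K. Recovery at such low loci was not tested. Named loci were the 2 of highest mean FPKM in each role, up to 6 of lowest p per fit and direction at an unadjusted p under 0.05, the 6 of largest spread, and up to 4 per score and direction past the threshold; others were chosen after their values were seen. Members and lists were chosen with earlier results of these data known. The results of 1 pathway gene that is no member are not reported here.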

Additional observations from a re-analysis of the deposited data

Results flagged for a closer look

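Within the groups of 10 animals, 4 of 82 sets of values held a library whose gap to its neighbour exceeded Dixon's critical share of the range, and chance flags about 1 set in 20. ACVR1 XLOC_013257 stood at 46.8 CPM in castrated male 2, where the other castrated males had 31.3 to 38.5 CPM. GDF9 stood at 10.5 CPM in castrated male 3, beside 14.6 to 18.2 CPM. SFRP5 XLOC_011592 was lowest, 60.1 CPM, in castrated male 10 as labelled, beside 160.4 to 252.2 CPM, and its FPKM there, 121.4, was not below that of female 3, 120.1. GDF10 stood at 1.69 CPM in castrated male 1, beside 6.44 to 20.2 CPM.

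Some second loci of a symbol had FPKM values without counts. SFRP5 XLOC_010954 had 0 counts in every library and a mean of 41.5 FPKM (18.6 to 69.1), SMAD6 XLOC_001537 had 0 counts and a mean of 0.130 FPKM, and WNT2 XLOC_016364 had 0 to 1 counts and a mean of 0.879 FPKM (0.0703 to 4.70). Counts and FPKM of these loci were made by different steps, and which of them reflects the locus was not tested.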

How the results depend on the processing

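For sex, age and their interaction, 0 member loci were called under each alternative run, leaving out each library in turn included. Over all loci the most called for sex was 18 of 21583, without both libraries numbered 10. For the scores, leaving out the libraries farthest from the median score, both libraries numbered 10, or these with castrated male 1 (the last chosen after seeing the data) gave 0 members for adipocyte in each case; for macrophage, limma-voom gave 9, leaving out the farthest 2, castrated male 1 alone 4, and castrated male 1 with both numbered 10 4; for endothelial, limma-voom gave 2 and these same 3 removals 0. Without the farthest 2 libraries of each score, calls over all loci fell too. They were 0 of 21931 for adipocyte, 440 of 21623 for macrophage and 14 of 21587 for endothelial. Of the gene pairs, by Pearson's r, 1 passed in FPKM and 1 without the farthest libraries, against 2. By Spearman's rho neither of these 2 pairs passed in FPKM or without the farthest libraries. TGFB1 with TGFBI reversed, to r = -0.0065 with DESeq2 size factors and -0.048 without castrated male 1. Where samples were removed, fewer remained; the cause of the other changes was not tested. Members with an unadjusted p under 0.05 numbered 3 to 7 for sex, 7 to 15 for age and 4 to 7 for the interaction when each library was left out in turn. DESeq2 size factors moved no library's median locus by more than 0.0305 (log2), and upper-quartile factors none by more than 0.0703. For sex, 39 members lay above 0 and 45 did with upper-quartile factors. Low loci such as BMP7 and WNT16 are limited by depth. No paired analysis was possible because the labels give no replicate numbers that tie a female to a castrated male.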
